A study of Mus musculus with 43 samples.

Results

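The cell cycle and replication genes are 42 genes that dividing cells use to copy their DNA and to separate its copies, and they were found as the genes of the counts table whose name is on a fixed list, 42 of the 56980 genes in the table. They fall into 26 mitotic genes and 16 S-phase genes, which are described apart. RNA was sequenced in 43 libraries of GFP-labelled cells sorted by FACS from the somatosensory cortex of mice, with sexes kept apart. The mice were of the strain C57BL6JRccHsd. The study asked how sex and the loss of Cux1 or Cux2 shape expression in upper-layer neurons. The labels call the cells layer 2/3 excitatory neurons. GFP had been delivered by in utero electroporation of their progenitors, so every group carries electroporated plasmid, and the label marks cells born from the electroporated progenitors.

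At E19, 4 libraries per sex came from WT embryos, 4 per sex from germline Cux1ΔC/ΔC embryos, whose Cux1 lacks its C-terminal part, and 4 per sex from germline Cux2−/− embryos, each electroporated with pCAG-GFP. At P4, 3 libraries per sex came from WT pups and 3 per sex from Cux2−/− pups, again with pCAG-GFP. The 2 Cux1 KO libraries at P4 were both male and carried another allele. They came from Cux1f/Δ23 pups electroporated with a Cre plasmid and pCALNL-GFP, a GFP that Cre switches on, so that exon 23 was removed in electroporated cells (Cux1Δ23/Δ23) of animals that carried the deletion on 1 allele everywhere. At P7, 2 female and 3 male libraries came from WT pups. The labels do not say how many animals each library holds, so the p-values measure the spread between libraries.

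A cell that divides first copies its DNA in S phase and then parts the copies in mitosis. The related MCM proteins open the double helix ahead of the copying enzymes, PCNA clamps those enzymes to the strand, and TYMS and ribonucleotide reductase supply the nucleotides, while CDK1 with the A- and B-type cyclins drives the cell into mitosis and the kinetochore, spindle and checkpoint proteins carry it through. In the developing cortex radial glia and intermediate progenitors divide near the ventricle, neurons leave the cycle before they migrate, and glial progenitors go on dividing after birth.

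The E19 libraries held 13321095 to 20715732 counts each, the P4 libraries 19499125 to 60559585 and the P7 libraries 15312029 to 27633827. Levels are given in CPM, counts scaled to the size of the library with TMM factors taken over all 43 libraries, and levels of different genes are compared per kilobase of transcript. Each of the 42 genes had counts in every library, with a lowest count of 20, and each passed the low-count filter of every comparison. A gene counts as called where its p, adjusted over all genes tested, is under 0.05 and its log2 fold change is larger than 0.5 in size within E19, or larger than 1 within P4, within P7 and across stages. In a bulk library fewer cells of a type and less RNA per cell cannot be told apart.

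The label of the cells was checked against 12 genes of upper-layer excitatory neurons. Their summed level had a lowest, median and highest value of 5466, 6337 and 7329 CPM in the 8 WT libraries at E19 and of 1033, 1388 and 1605 CPM in the 6 at P4. At P7 the 5 WT libraries held 644 and 709 CPM in females and 831, 655 and 687 CPM in males. The most abundant of them per kilobase was Tubb3, a neuronal tubulin, at each stage. Slc17a7, the vesicular glutamate transporter that defines mature cortical excitatory neurons, was at 0 in at least 1 WT library at P4 and at P7. The postnatal libraries also held markers of glia, which are given beside the results.

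The targeted genes come first. Cux1 stood at 425, 506, 346 and 414 CPM in WT females at E19 and at 289, 298, 312 and 349.7 CPM in Cux1 KO females, and the groups overlapped. In males the WT libraries held 468, 361, 464 and 312 CPM and the Cux1 KO libraries 378, 310.1, 339 and 373 CPM, again with overlap. At P4 Cux1 stood at 88.1, 157 and 99.6 CPM in WT males and at 83.3 and 168 CPM in Cux1 KO males, again overlapping. The log2 fold changes of KO over WT were -0.43 (SE 0.100, adjusted p = 0.286) in females and -0.23 (SE 0.116, adjusted p = 0.543) in males at E19 and 0.12 (SE 0.414, adjusted p = 0.912) at P4. A gene total can include transcripts of the mutant alleles, which lack 1 exon or the 3′ part, so it checks little of the deletion.

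Cux2 stood at 449, 492, 372 and 515 CPM in WT females at E19 and at 343, 280.1, 417 and 358 CPM in Cux2 KO females. In males the WT libraries held 517, 414, 385 and 332 CPM and the Cux2 KO libraries 388, 408, 268 and 343 CPM, and in both sexes the groups overlapped. The log2 fold changes were -0.37 (SE 0.124, adjusted p = 0.896) and -0.24 (SE 0.145, adjusted p = 0.731). Whether these counts come from the mutant allele cannot be told from a gene total. At P4 it was at 36.9, 34.5 and 28.1 CPM in WT females, 31.7, 31.4 and 46.5 CPM in WT males, 32.9, 29.6 and 51.2 CPM in Cux2 KO females and 36.1, 60.5 and 35.6 CPM in Cux2 KO males. In the Cux1 KO males it was at 80.4 and 96.6 CPM, above all 3 WT males, with 1.26 (SE 0.262, adjusted p = 0.0905). The Cux2 KO groups had 0.19 (SE 0.249, adjusted p = 0.886) in females and 0.26 (SE 0.286, adjusted p = 0.999) in males, each overlapping with WT. Between E19 and P4 both genes fell in WT, Cux1 with a log2 fold change of -1.73 (SE 0.150, adjusted p = 9.76e-08) and Cux2 with -3.59 (SE 0.148, adjusted p = 7.61e-11), without overlap of the 8 and 6 libraries.

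At E19 the WT libraries already held all 42 genes. The summed level of the 26 mitotic genes was 1529, 1236, 1764 and 1069.8 CPM in WT females and 1107, 1838, 1458 and 1772 CPM in WT males, and that of the 16 S-phase genes 1380.4, 1281, 1633 and 1132 CPM and 1227, 1460.0, 1438 and 1502 CPM. The sexes overlapped in both sums. Per kilobase, Ube2c, which attaches ubiquitin for the anaphase-promoting complex, was the highest mitotic gene with a mean of 61.6 CPM per kilobase, and Wdr62, a spindle pole protein, had 2.77 CPM per kilobase. Among the S-phase genes Pcna, the sliding clamp of replication, was highest at 106 CPM per kilobase, and Ccne1, a cyclin that opens S phase, had 4.41 CPM per kilobase.

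The genes lie on 16 chromosomes, and many share bases with a neighbour. The strand setting of the counting is not stated. If the reads carry no strand, which was taken from the library kit, reads from a neighbour on the other strand can be counted for a member or dropped as ambiguous. Pttg1 shares 3598 bases with Slu7, Ccne2 8127 bases with Ints8 and Prc1 21844 bases with Rccd1. Processed copies of Ccnb1, Ccnb2, Pcna and Tyms are also annotated and share sequence with them. The copy Ccnb1-ps had between 117 and 5269 counts per library and Pcna-ps2 between 577 and 3257.

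From E19 to P4 in WT, 27 of the 42 genes rose and 0 fell, 20 of the 26 mitotic and 7 of the 16 S-phase genes. Among all 18585 genes tested, 22.6% rose and 23.7% fell. The median log2 fold change was 1.55 for the mitotic and 0.90 for the S-phase genes, against 0.03 for all genes. By summed level the 6 WT libraries at P4 held 3293, 3736 and 4594 CPM of mitotic and 1983, 2495 and 3487 CPM of S-phase transcripts as lowest, median and highest, each library above all 8 at E19, whose medians were 1494 and 1409 CPM. The ratio of the S-phase to the mitotic sum went from a median of 0.956 at E19 to 0.676 at P4, with no overlap. At an unadjusted p under 0.05, 35 genes were higher and 1 was lower, where 6859 and 6444 of 18585 genes tested were.

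**Figure D1:**
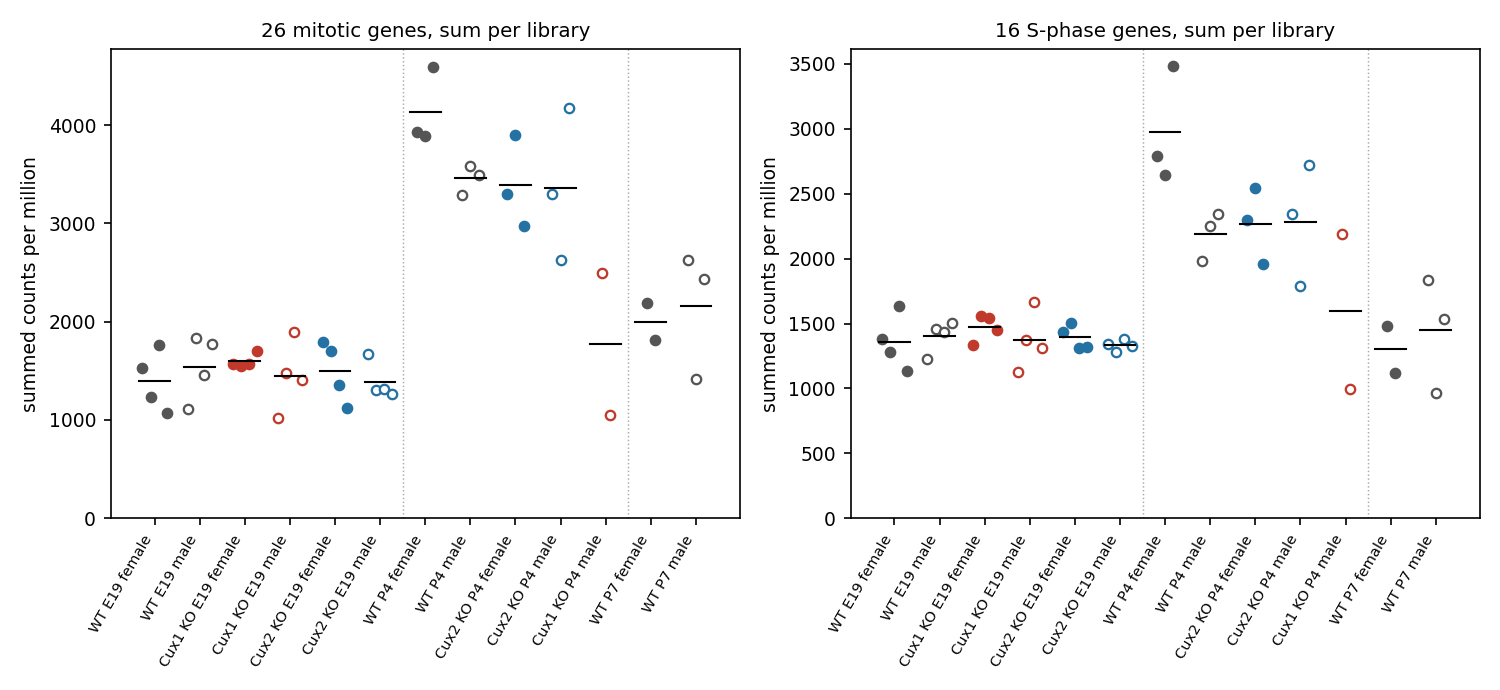
Summed level of the 26 mitotic and of the 16 S-phase genes in CPM, each point a library (filled, female, open, male) and each bar the mean of a group, with WT in grey, Cux1 KO in red and Cux2 KO in blue. WT libraries had a median mitotic sum of 1494 CPM at E19, 3736 CPM at P4 and 2186 CPM at P7.

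The classic marks of proliferation, Mki67 and Top2a, were not among the genes called. Mki67, which coats mitotic chromosomes in cycling cells, had a lowest, median and highest level of 97.0, 141 and 174 CPM at E19 and 111, 160.4 and 192 CPM at P4. The ranges overlapped, and the log2 fold change was 0.26 (SE 0.143, adjusted p = 0.116). Top2a, the topoisomerase that untangles sister DNA, stood at 153, 239 and 313 CPM at E19 and 299.8, 445 and 627 CPM at P4. Its lowest P4 library lay inside the E19 range, and its log2 fold change of 0.93 (SE 0.181, adjusted p = 0.000318) was short of 1. It was called without WT E19 female replicate 3, at 1.00 (adjusted p = 0.000319), or without WT P4 male replicate 1, at 1.04 (adjusted p = 0.000122). In females only, a fit chosen after seeing the data, it was also called, at 1.22 (adjusted p = 0.00191). The sign of Mki67 turned with Cux2 KO libraries in place of WT, an alternative chosen after seeing the data, at -0.05 (adjusted p = 0.803), in a range of adjusted p of 0.0607 to 0.880 over the other fits.

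Cdk1, the kinase that starts mitosis, stood at 42.96, 71.3 and 84.0 CPM at E19 and 159.6, 199 and 217 CPM at P4. Every P4 library lay above every E19 library, with a log2 fold change of 1.64 (SE 0.169, adjusted p = 6.44e-07). Ccnb1, the cyclin that activates it, went from 25.1, 36.4 and 47.0 CPM to 188, 222 and 264 CPM, without overlap, the strongest rise of the 42 genes at 2.69 (SE 0.158, adjusted p = 1.82e-09). Its processed copy Ccnb1-ps had a log2 fold change of 2.46 (SE 0.169, adjusted p = 9.15e-09), so reads of the gene and of the copy cannot be told apart here. Ccnb2, the other B-type cyclin, stood at 20.04, 36.7 and 51.5 CPM at E19 and 122, 136 and 162 CPM at P4. It rose by a log2 fold change of 1.98 (SE 0.177, adjusted p = 1.36e-07), with all 6 P4 libraries above all 8 at E19. Ccna2, the A-type cyclin, had 0.95 and fell short of the threshold.

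Birc5, the survivin of the chromosomal passenger complex, stood at 21.4, 30.3 and 38.9 CPM at E19 and 109.9, 142 and 174 CPM at P4. The stages did not overlap and its log2 fold change was 2.26 (SE 0.168, adjusted p = 2.07e-08). Aurkb, the kinase of the same complex, had 1.83, Aurka and Plk1, kinases of the spindle poles, had 1.50 and 1.53, and the checkpoint kinase Bub1 had 1.37. Its relative Bub1b, at 0.52, was not called. The centromere proteins Cenpa, Cenpe and Cenpf rose by 1.73, 1.56 and 1.54. Of the genes that build the spindle and its midzone, Kif11, Kif20a, Tpx2, Nusap1 and Prc1 rose by 1.19 (Tpx2) to 1.97 (Nusap1), and Kif23, a kinesin of cytokinesis, was not called at 0.94. Among genes of mitotic exit, Ube2c and Cdc20, which work with the anaphase-promoting complex, rose by 1.64 and 1.78.

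Pttg1, the securin that keeps separase inactive until anaphase, stood at 12.02, 22.4 and 29.6 CPM at E19 and 59.3, 70.4 and 76.2 CPM at P4. All P4 libraries were above all E19 libraries and the log2 fold change was 1.75 (SE 0.182, adjusted p = 6.60e-07). Slu7, which overlaps it on the other strand, had 0.58 (SE 0.0685, adjusted p = 2.66e-06). The 2 spindle pole genes of hereditary microcephaly parted. Aspm rose by 1.53 (SE 0.147, adjusted p = 3.13e-07), while Wdr62 had levels of 8.38, 12.8 and 18.4 CPM at E19 and 0.292, 7.51 and 16.9 CPM at P4. Its 3 P4 females lay inside the E19 range and its 3 P4 males below it, and its log2 fold change of -1.37 (SE 0.661, adjusted p = 0.0786) did not pass. It was called without WT E19 female replicate 2, at -1.67 (adjusted p = 0.0455), or without WT P4 female replicate 3, at -1.59 (adjusted p = 0.0486). In each sex alone, chosen after seeing the data, it had 0.19 in females and -3.33 in males, and over all the other fits the adjusted p ran over 0.000897 to 0.546.

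In S phase Rrm2, Tyms and both E-type cyclins rose, while the MCM genes were not called. Rrm2, the regulated subunit of ribonucleotide reductase, stood at 95.7, 151 and 186 CPM at E19 and 518, 646 and 987 CPM at P4, without overlap. Its log2 fold change was 2.26 (SE 0.164, adjusted p = 1.60e-08), and at P4 it was the highest S-phase gene per kilobase, at a mean of 258 CPM per kilobase. Ccne2, a cyclin E, went from 14.1, 18.9 and 26.7 CPM to 64.8, 74.4 and 104 CPM. Its stages did not overlap and its log2 fold change was 2.09 (SE 0.157, adjusted p = 2.24e-08), and Ccne1 had 1.90. Tyms, the thymidylate synthase, stood at 14.2, 31.8 and 42.9 CPM at E19 and 83.6, 111 and 159 CPM at P4. All 6 P4 libraries lay above all 8 at E19 and the log2 fold change was 1.94 (SE 0.219, adjusted p = 1.66e-06). Ung, which removes uracil from DNA, Hells, a chromatin remodeller, and Gins2, a subunit of the replicative helicase, rose by 1.83, 1.66 and 1.50.

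The 6 MCM genes, Pcna, Rrm1 and E2f1 were not called. Mcm2 stood at 66.5, 100.2 and 112 CPM at E19 and 72.3, 112 and 194 CPM at P4. The ranges overlapped and the log2 fold change was 0.27 (SE 0.193, adjusted p = 0.227). In fits chosen after seeing the data it was 0.81 in females only and -0.33 in males only, and over the other fits the adjusted p ran over 0.00549 to 0.300. The other MCM genes ran from -0.30 (Mcm7, adjusted p = 0.0237) to 0.90 (Mcm3, adjusted p = 0.000149). Pcna was at 125, 165 and 205 CPM at E19 and 132, 187 and 257 CPM at P4, with overlap, at a log2 fold change of 0.26 (SE 0.141, adjusted p = 0.111). Rrm1, the constant subunit of ribonucleotide reductase, had 0.91, and E2f1, a transcription factor of S-phase entry, -0.38. E19 and P4 were sequenced in separate rounds, so stage and round cannot be told apart. DESeq2 without its prior moved the median of all genes to -0.21, and in that fit 28 of the 42 genes and 10523 of 24972 genes tested were called. Of the 28, 27 rose and 1 fell, Wdr62, at -1.41 (adjusted p = 0.0182), against adjusted p of 0.000897 to 0.546 over all the alternatives.

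Other genes of the cycle moved in the same comparison. Of 42 other mitotic genes 30 rose and 3 fell, led by Cdkn3, a phosphatase of cyclin-dependent kinases, at 1.28, 3.75 and 4.84 CPM at E19 and 25.2, 30.6 and 32.8 CPM at P4, a log2 fold change of 3.13 (SE 0.238, adjusted p = 2.59e-08). Spc25, of the NDC80 complex of the kinetochore, went from 19.2, 36.3 and 40.5 CPM to 153, 198 and 275 CPM, by 2.69 (SE 0.194, adjusted p = 1.50e-08). Its partner Spc24 went from 11.8, 19.5 and 23.5 CPM to 81.9, 94.1 and 126 CPM, by 2.47 (SE 0.174, adjusted p = 1.19e-08). Espl1, the separase that Pttg1 restrains, fell from 25.4, 30.9 and 37.4 CPM to 0.877, 8.88 and 10.8 CPM, with a log2 fold change of -2.06 (SE 0.416, adjusted p = 0.000458). The condensin subunit Ncapd2 fell from 299.7, 325 and 402 CPM to 67.3, 125 and 185 CPM, with -1.41 (SE 0.158, adjusted p = 1.60e-06). All the P4 libraries lay apart from the E19 libraries for each of these 5 genes. Of 35 other replication genes 12 rose and 1 fell, and of 15 regulators of G1 9 rose and 1 fell. Of 14 centrosome genes of microcephaly 3 rose and 2 fell. Among all genes tested 22.6% rose and 23.7% fell. The G1 gene that fell was Cdkn1b, the inhibitor p27 of cyclin-dependent kinases, from 477, 528 and 548 CPM to 42.2, 59.5 and 74.9 CPM, with a log2 fold change of -3.05 (SE 0.118, adjusted p = 4.55e-11).

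Markers of dividing and of glial cells moved in the same libraries. Of 12 radial glia genes 4 rose and 4 fell, with a summed level of 3019, 3404 and 4116 CPM at E19 and 3954, 5236 and 6629.8 CPM at P4, and the most abundant per kilobase was Fabp7 at E19 and Slc1a3 at P4. Of 8 intermediate progenitor genes, 7 of which were tested, 1 rose and 4 fell, among them Eomes, the factor that defines these cells, at -4.93 (SE 0.776, adjusted p = 4.72e-05). Their sum went from 808, 987 and 1058 to 289.8, 506 and 674 CPM, with Gadd45g the most abundant at both stages and Neurog1 at 0 in at least 1 library of each. The sum of the intermediate progenitor markers was thus lower in every P4 library than in any E19 library. Of 9 astrocyte genes 6 rose and 0 fell, with 846, 1015 and 1312 CPM at E19, where Aldoc led, and 3242, 3547 and 4307 CPM at P4, where Id3 led. Of 8 oligodendrocyte lineage genes 5 rose and 0 fell, with 508, 623 and 778 CPM at E19 and 652, 2027 and 3096 CPM at P4, led by Olig1 at both. The glial sums of the stages did not overlap for astrocytes and overlapped for the oligodendrocyte lineage.

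Microglia, vessel cells, blood cells and most interneurons do not come from the electroporated progenitors. Of 10 microglia genes 2 rose and 1 fell, with a sum of 61.7, 75.8 and 97.0 CPM at E19 and 68.0, 87.8 and 109.9 CPM at P4, led by C1qa at E19. Tmem119, which defines microglia, was at 0 in at least 1 library of each stage. All 8 endothelial genes rose, from 3.85, 13.8 and 44.9 to 61.7, 107 and 242 CPM, led by Cldn5, with Tek at 0 in at least 1 library of each stage. Of 6 mural cell genes 2 rose and 1 fell, from 90.8, 104 and 153 CPM, led by Notch3, to 160.2, 253 and 464 CPM, led by Rgs5. Interneuron genes moved both ways, 3 up and 2 down of 10, at 288, 419.9 and 1069 CPM at E19, led by Dlx2, and 476, 859 and 1559.7 CPM at P4, led by Dlx6os1. Ciliated ependymal cells line the ventricle into which the plasmid is injected. Of their 6 genes 5 rose, from 11.1, 20.7 and 44.5 CPM, led by Foxj1, to 44.0, 113 and 253 CPM, led by Dynlrb2, and Tmem212 was at 0 in all 8 libraries at E19. All 5 erythroid genes rose, from 23.3, 70.9 and 96.1 to 206, 360.3 and 541 CPM, led by Hba-a2. Of the 12 upper-layer neuron genes 0 rose and 10 fell. What part of the rise of the 27 genes goes with any of these markers was not tested.

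From P4 to P7 in WT 7 of the 42 genes fell and 0 rose, 5 mitotic and 2 S-phase genes, while 0.697% of the 20936 genes tested fell and 1.60% rose. The median log2 fold change was -0.89 for the mitotic and -0.83 for the S-phase genes, against 0.01 for all genes. The mitotic sum at P7 was 2186 and 1815 CPM in females and 2628, 1419 and 2430.1 CPM in males, each below all 6 P4 libraries, and the S-phase sum was 1480.0 and 1122 CPM and 1839, 968 and 1534 CPM, also below all of them. By unadjusted p under 0.05, 39 genes were lower and 0 higher, where 2277 and 2401 of 20936 genes tested were. The P4 and P7 libraries were sequenced in the same round.

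Bub1, the checkpoint kinase, stood at 32.1 and 23.0 CPM in females and 38.0, 24.5 and 31.6 CPM in males at P7, against 55.0, 70.5 and 85.4 CPM at P4. The stages did not overlap and its log2 fold change was -1.26 (SE 0.167, adjusted p = 0.00526). Aspm, the spindle pole protein, was at 44.7 and 49.3 CPM in females and 63.3, 26.2 and 50.1 CPM in males at P7, against 88.1, 108.1 and 127 CPM at P4. It fell without overlap, with a log2 fold change of -1.20 (SE 0.199, adjusted p = 0.0100). Mki67 was at 81.3 and 74.0 CPM in females and 92.7, 49.0 and 92.6 CPM in males. All 5 libraries lay below the lowest at P4, and Mki67, which had not been called from E19 to P4, fell here with -1.03 (SE 0.183, adjusted p = 0.0124). Kif11, the motor that pushes spindle poles apart, fell with -1.05 (SE 0.196, adjusted p = 0.0150). Cenpf, of the outer kinetochore, was at 71.5 and 66.3 CPM in females and 113, 43.9 and 95.01 CPM in males, against 92.5, 172 and 205 CPM at P4. Its ranges overlapped, and its log2 fold change was -1.06 (SE 0.267, adjusted p = 0.0434).

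Ccne2 stood at 26.9 and 21.9 CPM in females and 51.1, 31.1 and 43.3 CPM in males at P7. All lay below the lowest P4 library at 64.8 CPM, with a log2 fold change of -1.22 (SE 0.253, adjusted p = 0.0210). Rrm2 was at 334 and 207 CPM in females and 474, 178 and 335 CPM in males, also below all P4 libraries. Its log2 fold change was -1.11 (SE 0.272, adjusted p = 0.0399). Among genes not called, Top2a was at 251 and 193 CPM and 346, 139.9 and 271 CPM, with -0.89 (SE 0.242, adjusted p = 0.0561), and Cdk1 at 122 and 98.3 CPM and 142, 78.1 and 124 CPM, with -0.78 (SE 0.155, adjusted p = 0.0182). Top2a overlapped with P4 and Cdk1 did not. Mcm2 was at 53.7 and 48.2 CPM in females and 77.6, 45.4 and 66.5 CPM in males, with -0.88 (SE 0.263, adjusted p = 0.0740), and Pcna at 127 and 105 CPM and 166, 82.2 and 121 CPM, with -0.62 (SE 0.197, adjusted p = 0.0894). Both overlapped with P4. Top2a was called without WT P4 male replicate 1 (adjusted p = 0.0442) or WT P7 male replicate 1 (0.0266), and Mcm2 without WT P7 male replicate 1 (0.0427). The adjusted p over the other fits ran over 0.00297 to 0.531 for Top2a and 0.00437 to 0.641 for Mcm2.

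Only 2 of the 42 genes had a log2 fold change above 0. Pttg1 was at 83.0 and 56.9 CPM in females and 102, 81.3 and 92.6 CPM in males, 1 library below and 4 above the P4 range, with 0.23 (SE 0.140, adjusted p = 0.381). Wdr62 was at 3.69 and 1.097 CPM in females and 6.36, 4.12 and 2.01 CPM in males, inside the P4 range, with 0.03 (SE 0.967, adjusted p = 0.993). Its sign turned without WT P4 male replicate 1, 2 or 3 or WT P7 male replicate 1 or 2, with -0.71 as the lowest value. The other 33 genes that were not called lay between -1.21 (Kif23) and -0.26 (Ccne1).

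How many genes pass from P4 to P7 hangs on the fold threshold and on single libraries. Without the fold threshold 24 genes fell, where 1333 of 20936 genes tested passed in either direction. With DESeq2 and its prior 4 fell, where 569 of 16916 passed. In either sex alone 0 did, where 0 of 19905 genes passed in females and 0 of 19522 in males, fits chosen after seeing the data. The log2 fold changes of the 7 genes ran from -1.96 (Ccne2) to -1.23 (Mki67) in females only. In males only they ran from -1.15 (Bub1) to -0.66 (Ccne2). Leaving out WT P7 male replicate 1 gave 18 of the 42 genes and 472 of 20603 genes tested. Without WT P7 female replicate 2 or WT P7 male replicate 2 there were 2, where 260 of 22116 and 239 of 20650 genes tested were called, and without WT P4 female replicate 1 or replicate 3 there were 4, where 363 of 20686 and 417 of 20626 were. Bub1 and Aspm were called without any 1 library. Ccne2 was lost without WT P7 female replicate 1 (adjusted p = 0.0718), WT P7 female replicate 2 (0.0577) or WT P7 male replicate 2 (0.0576). Cenpf was called only without WT P4 male replicate 3 or WT P7 male replicate 1, and without each other library its adjusted p ran from 0.0530 to 0.126. Rrm2 too was called only without those libraries, and without each other its adjusted p ran from 0.0505 to 0.105. Mki67 fell short of the fold threshold without WT P4 female replicate 1 (-0.9995), WT P7 female replicate 2 (-0.97) or WT P7 male replicate 2 (-0.92). Kif11 did so without WT P4 female replicate 3 (-0.98), WT P4 male replicate 1 (-0.96), WT P7 female replicate 2 (-0.93) or WT P7 male replicate 2 (-0.96). Over the other fits the adjusted p ran over 4.25e-11 to 0.129 for Bub1, 5.22e-07 to 0.210 for Aspm, 3.39e-05 to 0.238 for Ccne2, 0.000973 to 0.534 for Cenpf and 0.000496 to 0.433 for Rrm2.

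Of the other mitotic genes 9 fell and 0 rose from P4 to P7, among them Ncapg, a condensin subunit, from 34.4, 49.5 and 57.2 CPM to 12.9, 21.3 and 30.7 CPM, with -1.21 (SE 0.205, adjusted p = 0.0105). Of the other replication genes 3 fell, among them the E2F factors E2f2, from 9.03, 18.6 and 30.6 CPM to 3.40, 5.66 and 6.34 CPM, with -1.94 (SE 0.321, adjusted p = 0.0100), and E2f7, from 8.83, 17.2 and 25.1 CPM to 3.01, 6.66 and 7.90 CPM, with -1.53 (SE 0.320, adjusted p = 0.0212). All 5 libraries at P7 lay below all 6 at P4 for each of these 3 genes. Of the G1 regulators 0 were called, with 15 tested, and of the centrosome genes 1 fell. Median sums at P7 were 2111 CPM for the other mitotic, 1303 CPM for the other replication, 2984 CPM for the G1 and 613 CPM for the centrosome genes.

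From P4 to P7 6 of 9 astrocyte genes rose, to sums of 10211 and 8446 CPM in females and 7558, 8746 and 6694 CPM in males, led by Id3. Of the oligodendrocyte lineage genes 2 of 8 rose, to 4468 and 5316 CPM and 3335, 5014 and 4480.3 CPM, led by Mbp. Of the microglia genes 9 of 10 rose, to 441 and 1579 CPM and 314, 468 and 655 CPM. Among progenitor genes 1 of the intermediate progenitor list, Sstr2, fell, at sums of 423 and 371 CPM and 553, 370.4 and 400.0 CPM, and 0 of the radial glia list were called, at 7910.2 and 7310.1 CPM and 6711, 7323 and 6345 CPM, led by Slc1a3. Of the upper-layer genes 2 fell, and of the endothelial, mural, interneuron, ependymal and erythroid genes 0 were called. The part of these lists in the fall was not tested.

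**Figure D2:**
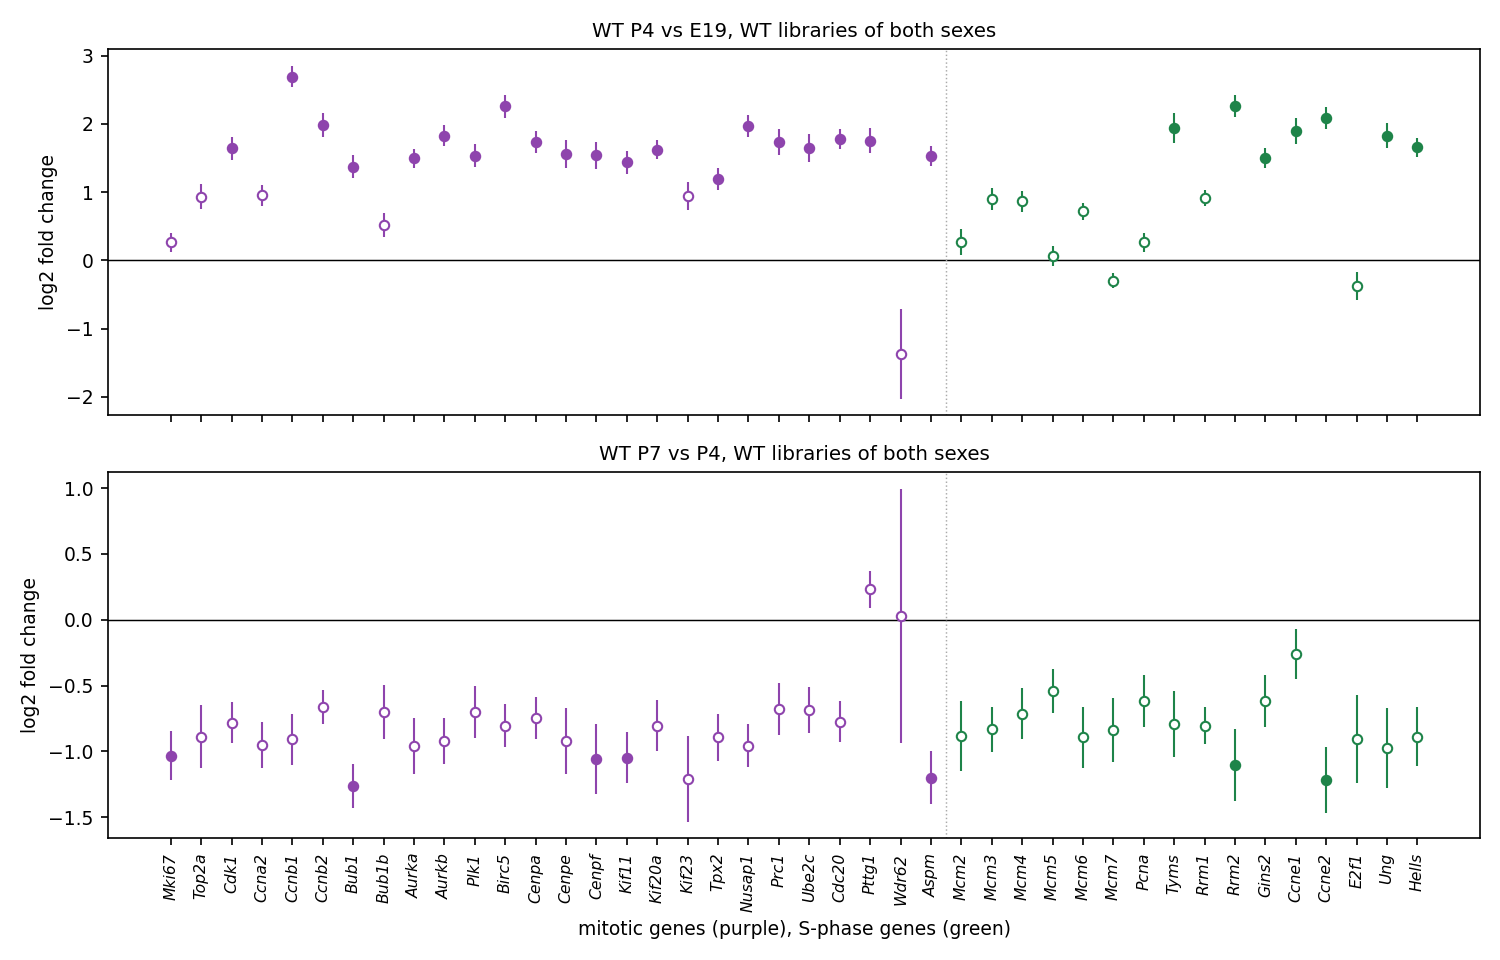
Log2 fold change of each of the 42 genes in WT from E19 to P4 and from P4 to P7, bars showing the standard error and filled points the genes called. Ccnb1 had the highest change to P4 at 2.69 and Bub1 the lowest to P7 at -1.26.

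**Figure D3:**
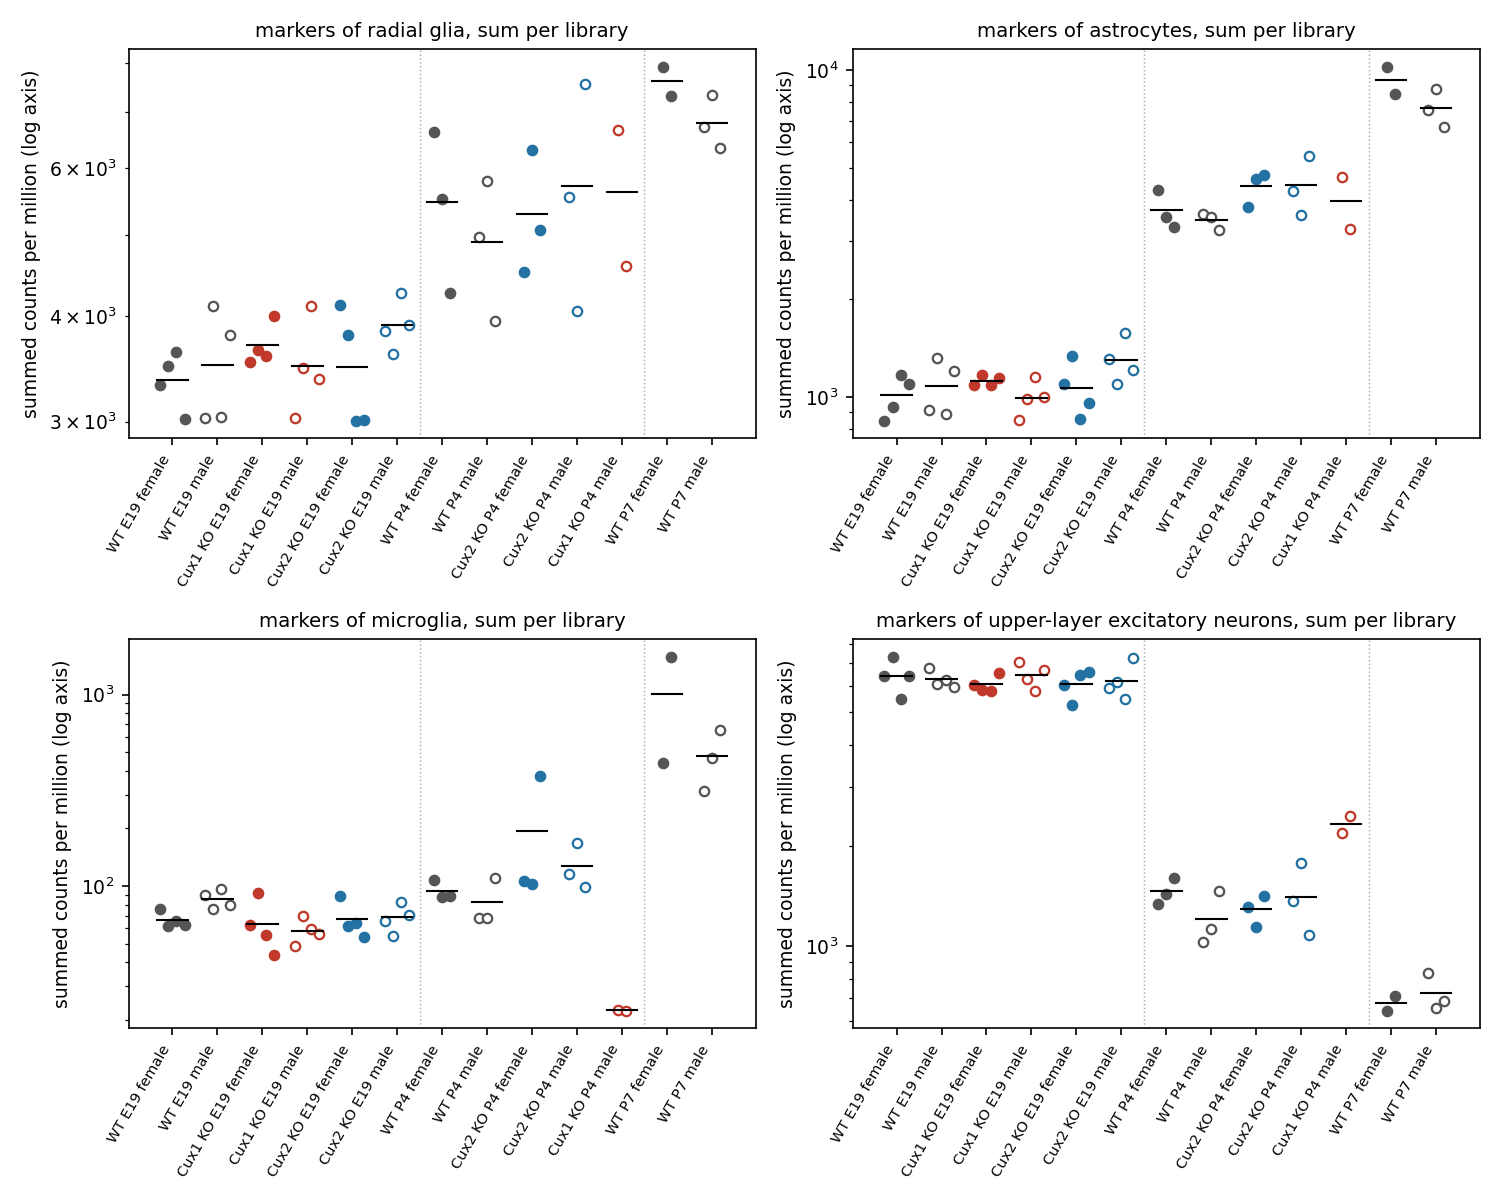
Summed level in CPM, on a log axis, of markers of radial glia, astrocytes, microglia and upper-layer neurons, each point a library (filled, female, open, male) and each bar a group mean, with WT in grey, Cux1 KO in red and Cux2 KO in blue. Upper-layer markers had a median of 6337 CPM in WT at E19 and 687 CPM at P7, and astrocyte markers 1015 and 8446 CPM.

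Between the sexes, WT libraries were compared at each stage. At E19 edgeR called 0 of the 42 genes, against 0.0461% of all genes, and DESeq2 called 0 with and without its prior. The median log2 fold change of females over males was -0.16 for mitotic and -0.07 for S-phase genes. Leaving out 1 library moved these medians over -0.31 to -0.05 and -0.19 to 0.02. With an unadjusted p under 0.05 there was 1 gene, where 3.67% of all genes had one. There were, here and below with the percent of all genes in brackets, 7 (4.68%) without WT E19 female replicate 3, 4 (4.79%) without WT E19 male replicate 1 and 0 to 1 without any other library. The gene was Mcm4, named after its values were seen, at 67.1, 70.4, 85.7 and 60.9 CPM in females and 87.0, 82.2, 81.3 and 90.2 CPM in males. The groups overlapped, with -0.28 (SE 0.113, unadjusted p of 0.0287, adjusted p = 0.992).

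The genes followed through every comparison overlapped between the WT sexes at E19. Mki67 was at 143, 120.0, 174 and 97.0 CPM in females and 122, 165, 138 and 148 CPM in males, with -0.12 (SE 0.159, adjusted p = 0.992). Top2a stood at 238, 203, 313 and 153 CPM in females and 198, 311, 239.7 and 285 CPM in males, with -0.20 (SE 0.193, adjusted p = 0.992). Both had their highest value in female replicate 3. Cdk1 was at 72.5, 45.5, 76.3 and 44.4 CPM in females and 42.96, 70.1, 77.0 and 84.0 CPM in males, with -0.21 (SE 0.222, adjusted p = 0.992). The clamp gene Pcna stood at 168, 133, 205 and 125 CPM in females and 139, 161, 172 and 178 CPM in males, with -0.06 (SE 0.147, adjusted p = 0.995). The helicase gene Mcm2 was at 102, 93.1, 105 and 66.5 CPM in females and 91.0, 112, 98.4 and 102 CPM in males, with -0.15 (SE 0.137, adjusted p = 0.992). Neither sex was the higher in all libraries of any of these genes. Wdr62 was at 14.4, 9.14, 17.3 and 10.8 CPM in females and 11.1, 16.9, 8.38 and 18.4 CPM in males, with -0.10 (SE 0.265, adjusted p = 0.995). Pttg1 stood at 23.8, 14.6, 12.02 and 29.6 CPM in females and 17.5, 23.7, 21.2 and 28.0 CPM in males, with -0.19 (SE 0.250, adjusted p = 0.992). Of the genes on the other cycle and cell type lists 0 were called. Microglia markers summed to 75.5, 61.7, 65.8 and 62.8 CPM in females and 89.6, 76.0, 97.0 and 79.5 CPM in males, and oligodendrocyte lineage markers to 557, 565, 508 and 623 and 732, 624, 778 and 754 CPM, both lower in each female. Their part was not tested.

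At P4 the WT females stood above the males in most of the genes. The mitotic sum was 3927, 3886 and 4594 CPM in females and 3293, 3585 and 3496 CPM in males, and the S-phase sum 2789, 2643 and 3487 CPM and 1983, 2250.4 and 2346 CPM, each without overlap. Of the 42 genes 40 had a log2 fold change above 0, with medians of 0.24 and 0.43, against -0.01 over all genes. edgeR called 0 of them, as it called 0% of all genes, and DESeq2 called 1 with and 2 without its prior, where it called 85 of 17024 and 238 of 21447 genes tested. At an unadjusted p under 0.05, 11 genes were higher in females, where 3.50% of all genes were, namely Bub1b, Cenpa, Cenpf, Prc1 and Wdr62 of the mitotic and Mcm2, Mcm5, Mcm6, Mcm7, Rrm2 and Ccne2 of the S-phase genes. In either direction the number was 7 (4.53%) without WT P4 female replicate 3 and 7 (5.75%) without WT P4 male replicate 1. It was 9 to 12 without any other library. With all groups of the stage in 1 fit it was 2 (7.65%), and with DESeq2 it was 14 with (11.8%) and without (11.7%) its prior.

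Mcm2, a subunit of the helicase, stood at 138, 142 and 194 CPM in females and 77.2, 72.3 and 85.2 CPM in males. All 3 females lay above all 3 males, with 1.02 (SE 0.176, unadjusted p of 0.000908, adjusted p = 0.549). Wdr62 stood at 12.8, 13.7 and 16.9 CPM in females and 2.19, 1.49 and 0.292 CPM in males. Every female was again above every male, and the log2 fold change was 3.45 (SE 0.739, unadjusted p of 0.00281, adjusted p = 0.549), with adjusted p from 0.000510 to 0.825 over the other fits, the lowest from DESeq2 without its prior. Mki67 was at 192, 162 and 189.8 CPM in females and 159, 157 and 111 CPM in males, also apart, with 0.35 (SE 0.179, unadjusted p of 0.0958, adjusted p = 0.722). Top2a was at 444, 482 and 627 and 299.8, 447 and 411 CPM, Cdk1 at 206, 179 and 217 and 159.6, 196 and 202 CPM and Pcna at 187, 203 and 257 and 132, 188 and 163 CPM. Their unadjusted p was 0.0819, 0.480 and 0.0657.

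The other lists leaned the same way in part. The other mitotic genes summed to 3958, 3945 and 4679 CPM in females and 3389, 3576 and 3099 CPM in males, the other replication genes to 2269, 2142 and 2916 and 1609, 1939 and 1655 CPM and the G1 regulators to 4149, 3765 and 5202 and 2986, 3545 and 2936 CPM, without overlap, while the centrosome genes overlapped at 945, 772 and 1005 and 811, 913 and 904 CPM. Intermediate progenitor markers stood at 574, 560.2 and 674 CPM in females and 451, 409 and 289.8 CPM in males, again higher in each female. Interneuron markers were also higher in each female, at 919, 969 and 1559.7 CPM against 476, 799 and 634 CPM. Endothelial markers were lower in each female, at 61.7, 85.7 and 63.6 CPM against 178, 128 and 242 CPM, as were mural markers, at 160.2, 204 and 192 CPM against 464, 303 and 336 CPM, and oligodendrocyte lineage markers, at 1597, 1836 and 652 CPM against 3096, 2218 and 2379 CPM. Of the genes on these and the other marker lists 0 were called, and their part in the difference was not tested.

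Whether the sex difference itself changed from E19 to P4 was tested as an interaction. edgeR called 0 of the 42 genes, against 0.0747% of all genes, and DESeq2 without its prior 2, where it called 436 of 22124 genes tested. With an unadjusted p under 0.05 there were 8 genes, all toward females at P4, where 11.2% of all genes had one. Their number went to 16 (10.8%) without WT E19 female replicate 3, 13 (11.2%) without WT E19 male replicate 1, 3 (9.77%) without WT E19 male replicate 2 and 3 (9.78%) without WT P4 female replicate 3, and was 5 to 10 without any other library. Wdr62 had an interaction of 3.54 (SE 0.708, unadjusted p of 0.000221, adjusted p = 0.107) and Mcm2 of 1.15 (SE 0.238, unadjusted p of 0.000296, adjusted p = 0.118). Leaving out 1 WT P4 male library, any of replicates 1, 2 and 3, gave 1 gene called, where 83 of 20975, 279 of 20934 and 115 of 21070 genes tested were called.

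At P7 edgeR called 0 of the genes between the sexes, against 0.0247% of all genes, and DESeq2 called 0 with and without its prior. The medians were -0.07 for mitotic and -0.14 for S-phase genes. Leaving out 1 library moved them over -0.32 to 0.08 and -0.35 to 0.06. At an unadjusted p under 0.05 there was 1 gene, against 4.36% of all genes. There were 7 (5.14%) without WT P7 male replicate 2 and 0 to 2 without any other library. The gene was Ccne2, at 26.9 and 21.9 CPM in females and 51.1, 31.1 and 43.3 CPM in males. Both females lay below all 3 males, with -0.78 (SE 0.265, unadjusted p of 0.0269, adjusted p = 1.00). At P4 the same gene had stood at 79.6, 98.5 and 104 CPM in females and 64.8, 69.1 and 64.9 CPM in males, the females above, with 0.51 (SE 0.151, unadjusted p of 0.0140, adjusted p = 0.675). The difference between the 2 stages was not tested.

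In the germline Cux1 KO at E19 the sums of both lists overlapped with WT in each sex, and 1 gene, Pttg1, fell, in males. In females the mitotic sum was 1568, 1549, 1571 and 1702 CPM and the S-phase sum 1336, 1562, 1544 and 1448 CPM in Cux1 KO libraries. The medians were 0.18 and 0.17, against 0.01 for all genes. edgeR called 0 of the 42 genes, against 0.0576% of all genes, and DESeq2 called 0 with and without its prior. By unadjusted p under 0.05, 3 genes were higher in KO females, Ccna2, Bub1 and Prc1, where 6.87% of all genes had one in either direction. The count hung on 1 library, at 24 (11.8%) without WT E19 female replicate 3 and 1 to 4 without any other. Chosen after its values were seen, Bub1 stood at 32.0, 38.9, 37.0 and 34.0 CPM in KO and 28.8, 20.7, 33.8 and 18.0 CPM in WT females. The groups overlapped, at 0.49 (SE 0.178, unadjusted p of 0.0164, adjusted p = 0.687).

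In males 1 of the 42 genes fell, Pttg1, against 0.0979% of all genes called. Pttg1 stood at 7.32, 7.30, 9.81 and 8.999 CPM in Cux1 KO males and 17.5, 23.7, 21.2 and 28.0 CPM in WT males. All 4 KO libraries lay below all 4 WT libraries, with a log2 fold change of -1.47 (SE 0.176, adjusted p = 0.0164), and the adjusted p ran over 4.40e-11 to 0.0498 in the other fits. In KO females Pttg1 was at 10.9, 8.97, 16.6 and 18.6 CPM against 23.8, 14.6, 12.02 and 29.6 CPM in WT females. These overlapped, with -0.54 (SE 0.274, unadjusted p of 0.0714, adjusted p = 0.735), and with both sexes in 1 fit it was called at -0.99 (adjusted p = 0.0389). The interaction of KO and sex for Pttg1 was 0.93 (SE 0.358, unadjusted p of 0.0175, adjusted p = 0.962), so a difference between the sexes was not shown. The call in males was lost without Cux1 KO E19 male replicate 2 (adjusted p = 0.0508) or Cux1 KO E19 male replicate 4 (0.0569). It was also lost without WT E19 male replicate 2 (0.0700) or WT E19 male replicate 3 (0.0709). In that order the log2 fold change was -1.42, -1.50, -1.44 and -1.50, and 2, 0, 0 and 0 of all genes were called.

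Slu7, the splicing gene that overlaps Pttg1 on the other strand, was at 86.6, 76.8, 91.0 and 95.8 CPM in Cux1 KO males and 81.2, 87.6, 75.6 and 80.9 CPM in WT males. The groups overlapped, at 0.07 (SE 0.0882, adjusted p = 0.826). The call of Pttg1 thus came without a call of its neighbour. Of the other 41 genes 0 were called in males, 0 of them at an unadjusted p under 0.05, where 10.4% of all genes had one, and DESeq2 with and without its prior called 1 gene each, where it called 73 of 15855 and 113 of 16430 genes tested. With Pttg1 the number at that p was 5 (8.89%) without Cux1 KO E19 male replicate 3, 4 (13.1%) without WT E19 male replicate 1 and 1 without any other library. The KO males had 22994 to 23890 genes detected against 21790 to 22820 in WT males. The mitotic sum in KO males was 1019, 1475, 1897 and 1411 CPM and the S-phase sum 1130.4, 1376, 1668 and 1308 CPM, spanning the WT male ranges. The medians were -0.12 and -0.04. Mki67 was at 147, 135, 145 and 165 CPM in KO females and 96.7, 123, 192 and 131 CPM in KO males, against 143, 120.0, 174 and 97.0 CPM and 122, 165, 138 and 148 CPM in WT. In both sexes the groups overlapped. Of the genes on the other cycle and cell type lists 1 was called, Npy, a peptide of interneurons, in males at -1.33 (SE 0.192, adjusted p = 0.0367), and 0 in females. For KO by sex, edgeR called 0 of the 42 genes and 0% of all genes, DESeq2 without its prior called 0, and 1 gene, Pttg1, had an unadjusted p under 0.05, where 3.81% of all genes did. The number went to 11 (5.91%) without WT E19 female replicate 3, 9 (4.45%) without Cux1 KO E19 male replicate 3 and 7 (6.80%) without WT E19 male replicate 1, and was 1 to 2 without any other library.

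The other genes followed through every comparison overlapped with WT of the same sex in Cux1 KO at E19. Top2a was at 249, 236, 253 and 286 CPM in KO females, with 0.17 (SE 0.165, adjusted p = 0.847), and at 179, 229, 304 and 235 CPM in KO males, with -0.16 (SE 0.162, adjusted p = 0.795). Cdk1 stood at 66.8, 75.3, 68.2 and 61.5 CPM in KO females, with 0.19 (SE 0.172, adjusted p = 0.843), and at 38.8, 66.0, 85.8 and 53.0 CPM in KO males, with -0.20 (SE 0.237, adjusted p = 0.827). Both of these mitotic genes overlapped with WT in either sex. Mcm2 was at 94.6, 111, 106 and 102 CPM in KO females, with 0.18 (SE 0.130, adjusted p = 0.809), and at 76.6, 99.6, 123 and 98.6 CPM in KO males, with -0.05 (SE 0.129, adjusted p = 0.934). Pcna stood at 168, 197, 181 and 162 CPM in KO females, with 0.17 (SE 0.141, adjusted p = 0.838), and at 133, 174, 194 and 148 CPM in KO males, with -0.03 (SE 0.122, adjusted p = 0.955). The S-phase genes overlapped with WT as well. Wdr62 was at 13.8, 17.9, 14.2 and 20.6 CPM in KO females, with 0.36 (SE 0.205, adjusted p = 0.748), and at 12.6, 12.9, 18.8 and 14.3 CPM in KO males, with 0.07 (SE 0.239, adjusted p = 0.952). Intermediate progenitor markers were higher in each KO female than in any WT female, at 1143, 1266, 1218 and 1284 CPM against 1034, 883, 1058 and 1012 CPM. In KO males microglia markers, at 48.3, 69.5, 59.4 and 56.1 CPM against 89.6, 76.0, 97.0 and 79.5 CPM, and oligodendrocyte lineage markers, at 522, 432, 396 and 621 CPM against 732, 624, 778 and 754 CPM, were lower in each library. Their part in the values of Pttg1 was not tested.

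In Cux2 KO libraries at E19 none of the 42 genes was called in either sex. The same WT libraries serve as controls here as for Cux1, so the values are given side by side. In females edgeR called 0 genes, against 0.0287% of all genes, DESeq2 called 0 with and without its prior, and 0 genes had an unadjusted p under 0.05, where 4.62% of all genes did. The number was 3 (5.38%) without WT E19 female replicate 3 and 0 without any other library. The medians were 0.10 for mitotic and 0.08 for S-phase genes. The mitotic sum of the Cux2 KO females was 1798, 1701, 1359 and 1122 CPM and the S-phase sum 1431, 1506, 1315 and 1318 CPM, overlapping with WT.

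In males edgeR called 0 genes, against 0.121% of all genes, and DESeq2 0 with and without its prior. At an unadjusted p under 0.05 Birc5 and Tyms were lower, where 7.94% of all genes had one in either direction. The number was 14 (7.78%) without WT E19 male replicate 1 and 0 to 4 without any other library. Birc5 stood at 25.4, 22.1, 26.8 and 21.9 CPM in KO and 21.9, 38.9, 38.4 and 33.0 CPM in WT males. The groups overlapped, at -0.48 (SE 0.178, unadjusted p of 0.0194, adjusted p = 0.557). Tyms was at 29.2, 31.1, 24.3 and 28.1 CPM in KO and 28.4, 32.2, 35.9 and 42.9 CPM in WT males. They overlapped too, at -0.33 (SE 0.147, unadjusted p of 0.0441, adjusted p = 0.620). The medians in males were -0.19 and -0.12, and the sums were 1676, 1306, 1311 and 1262 CPM of mitotic and 1344, 1282, 1383 and 1329 CPM of S-phase transcripts. Pttg1, called in Cux1 KO males, was at 20.5, 22.1, 19.9 and 36.3 CPM in Cux2 KO females and 20.7, 22.2, 31.2 and 34.9 CPM in Cux2 KO males. Both overlapped with WT, at 0.32 (SE 0.276, adjusted p = 0.977) and 0.25 (SE 0.198, adjusted p = 0.793). For KO by sex edgeR called 0 of the 42 genes and 0% of all genes, DESeq2 without its prior called 0, and 1 gene had an unadjusted p under 0.05, where 3.78% of all genes did. That number was 6 (4.62%) without WT E19 female replicate 3 and 0 to 2 without any other library. Of the genes on the other cycle and cell type lists 0 were called in either sex.

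Values of the other genes followed throughout overlapped with WT in Cux2 KO at E19 too. Mki67 was at 169.7, 168, 126 and 89.7 CPM in KO females, with 0.06 (SE 0.204, adjusted p = 0.984), and at 171, 121, 111 and 107 CPM in KO males, with -0.18 (SE 0.150, adjusted p = 0.805). The marker of cycling cells thus had its lowest Cux2 KO value of the stage in female replicate 4. Top2a was at 310.1, 297, 216 and 180.3 CPM in KO females, with 0.15 (SE 0.209, adjusted p = 0.977), and at 279, 211, 207 and 211 CPM in KO males, with -0.21 (SE 0.145, adjusted p = 0.767). Cdk1 stood at 64.7, 65.8, 60.9 and 56.8 CPM in KO females, with 0.06 (SE 0.177, adjusted p = 0.980), and at 75.6, 50.6, 57.0 and 54.6 CPM in KO males, with -0.22 (SE 0.193, adjusted p = 0.827). Both of these mitotic genes overlapped with WT in either sex. Mcm2 was at 101, 114, 82.4 and 84.0 CPM in KO females, with 0.07 (SE 0.155, adjusted p = 0.977), and at 103, 98.1, 100.2 and 100.5 CPM in KO males, with -0.02 (SE 0.0938, adjusted p = 0.969). Pcna stood at 149.5, 178, 156 and 168 CPM in KO females, with 0.06 (SE 0.146, adjusted p = 0.978), and at 136, 146, 143 and 161 CPM in KO males, with -0.17 (SE 0.102, adjusted p = 0.732). The S-phase genes overlapped with WT as well. Wdr62 was at 16.1, 14.8, 15.1 and 14.8 CPM in KO females, with 0.24 (SE 0.200, adjusted p = 0.977), and at 15.6, 13.9, 15.8 and 13.9 CPM in KO males, with 0.10 (SE 0.229, adjusted p = 0.947). The sums of all 11 cell type lists overlapped with WT in both sexes.

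At P4 the Cux2 KO females stood below the WT females in most of the genes. Their mitotic sum was 3297, 3898 and 2971 CPM and their S-phase sum 2296, 2544 and 1955 CPM, against 3927, 3886 and 4594 CPM and 2789, 2643 and 3487 CPM in WT females. The mitotic sums overlapped and the S-phase sums did not. Of the 42 genes 41 had a log2 fold change under 0, with medians of -0.32 and -0.34, against 0.02 for all genes. edgeR called 0 of the genes and 0% of all genes, and DESeq2 called 0 with and 1 without its prior, Wdr62, where it called 42 of 17677 and 179 of 21618 genes tested. At an unadjusted p under 0.05, 15 genes were lower, where 2.83% of all genes were, and 1, Pttg1, was higher. The total was 16, where 7.39% of all genes had such a p. It went to 10 (5.15%) without Cux2 KO P4 female replicate 1 and 10 (5.09%) without Cux2 KO P4 female replicate 3. Without any other library it was 12 to 20. It was 5 (4.03%) with all groups of the stage in 1 fit and 6 (5.82%) with both sexes in 1 fit. With DESeq2 it was 18 with (11.2%) and without (11.0%) its prior. The KO females also had more genes detected, 23598 to 23718 against 21763 to 22162, and the part of this was not tested. The WT females that serve here as controls are those that stood above the WT males, and the 2 comparisons share them.

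Mki67 was at 140.4, 154 and 118 CPM in Cux2 KO females, below all 3 WT females, with -0.40 (SE 0.139, unadjusted p of 0.0245, adjusted p = 0.649). Wdr62 was at 4.80, 7.37 and 3.28 CPM in Cux2 KO and 12.8, 13.7 and 16.9 CPM in WT females. The groups did not overlap, at -1.49 (SE 0.339, unadjusted p of 0.00342, adjusted p = 0.482), with adjusted p over 0.0119 to 0.998 in the other fits. Its sign turned where both sexes shared 1 fit, at 0.58 (adjusted p = 0.998). Mcm2 was at 101, 101 and 93.8 CPM in Cux2 KO females, below all WT females, at -0.68 (SE 0.156, unadjusted p of 0.00379, adjusted p = 0.494).

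In Cux2 KO males the sums were 3295, 2629 and 4171 CPM of mitotic and 2346, 1791 and 2719 CPM of S-phase transcripts, against 3293, 3585 and 3496 CPM and 1983, 2250.4 and 2346 CPM in WT males, with overlap. The medians were -0.10 and 0.01. Leaving out 1 library moved them over -0.28 to 0.09 and -0.11 to 0.14. edgeR called 0 of the genes and 0% of all genes, DESeq2 called 0 with and without its prior, and 3 genes were higher at an unadjusted p under 0.05, where 5.76% of all genes had one. Wdr62 was at 5.31, 5.52 and 14.8 CPM in KO males and 2.19, 1.49 and 0.292 CPM in WT males. All KO libraries were above all WT libraries, at 2.67 (SE 0.862, unadjusted p of 0.0197, adjusted p = 0.644). Mcm2 was at 118, 95.8 and 143 CPM in KO males, above all 3 WT males, at 0.59 (SE 0.178, unadjusted p of 0.0144, adjusted p = 0.579).

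Wdr62 and Mcm2 in Cux2 KO thus lay below WT in females and above WT in males. For both genes the WT sexes lay apart, females above males, while the Cux2 KO sexes overlapped. The test of KO by sex uses the same WT libraries as the comparison of WT sexes. It gave -4.17 (SE 0.939, unadjusted p of 0.00108, adjusted p = 0.629) for Wdr62 and -1.28 (SE 0.243, unadjusted p of 0.000309, adjusted p = 0.482) for Mcm2. edgeR called 0 of the 42 genes and 0% of all genes in this test, and DESeq2 without its prior called 2 of them and 284 of 22850 genes tested. With an unadjusted p under 0.05 there were 4 genes, where 7.27% of all genes had one. There were 10 (8.61%) without Cux2 KO P4 male replicate 2, 6 (6.62%) without Cux2 KO P4 female replicate 2 and 3 to 5 without any other library.

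Pttg1 was higher in every Cux2 KO library at P4 than in any WT library of the same sex. It stood at 146, 121 and 98.8 CPM in KO and 69.8, 71.0 and 76.2 CPM in WT females, at 0.75 (SE 0.163, unadjusted p of 0.00270, adjusted p = 0.459). In males it was at 161, 109 and 133 CPM in KO and 70.3, 70.6 and 59.3 CPM in WT, at 1.00 (SE 0.182, unadjusted p of 0.00129, adjusted p = 0.326), and neither passed the adjustment. The adjusted p in the other fits ran over 0.00555 to 0.983 in females and 0.000185 to 1.00 in males. Slu7, on the other strand, was at 123, 111 and 118 CPM in KO and 119, 120.1 and 139 CPM in WT females, and at 85.0, 87.8 and 89.9 CPM in KO and 122, 125 and 109.8 CPM in WT males. It overlapped in females and was lower in every KO male, at -0.45 (SE 0.116, unadjusted p of 0.00745, adjusted p = 0.449), the direction opposite to Pttg1.

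Other genes named across the comparisons held no call in Cux2 KO at P4. Top2a was at 395, 565 and 331 CPM in KO females and 420.3, 314 and 475 CPM in KO males, Cdk1 at 152, 178 and 168 and 163, 135 and 209 CPM and Pcna at 173, 214 and 136 and 174, 124 and 170.3 CPM. Of the genes on the other cycle and cell type lists 0 were called in either sex. The other mitotic genes summed to 3301, 3922 and 3063 CPM in KO females and 3281, 2651 and 4293 CPM in KO males, and the intermediate progenitor markers to 409, 399 and 426 and 573, 341 and 434 CPM. Both lists were lower than WT in each KO female and overlapped in males. So were interneuron markers, at 808, 844 and 501 CPM in KO and 919, 969 and 1559.7 CPM in WT females. Mural markers were higher in each KO female, at 375, 418 and 411 CPM, and ependymal markers in each KO male, at 329, 189 and 333 CPM, than in WT of the same sex. Their part was not tested.

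In the Cux1 KO males at P4, where Cre removed exon 23 in the labelled cells, the mitotic sum was below WT in both libraries and the S-phase sum in replicate 2 alone. These pups also differed from WT in the Cre plasmid, the GFP plasmid and the deletion on 1 allele everywhere. Those differences cannot be told apart from the loss of Cux1 in the labelled cells. The mitotic sum was 2498 and 1050.3 CPM in replicates 1 and 2, below the 3 WT males at 3293, 3585 and 3496 CPM. The S-phase sum was 2192 and 994 CPM against 1983, 2250.4 and 2346 CPM, and replicate 1 lay inside the WT range. Of the 42 genes 41 had a log2 fold change under 0, with medians of -1.01 and -0.46. The median of all genes was itself -0.18 here, -0.46 without the low-count filter and -0.32 with DESeq2 without its prior, where the mitotic median was -1.01 and the S-phase median -0.46.

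edgeR called 0 of the 42 genes and 0% of all genes. DESeq2 called 9 with its prior, where it called 2273 of 18202 genes tested, and 10 without, where it called 3242 of 21373. With all groups of the stage in 1 fit edgeR called 10, and 2597 of 23658 genes tested. By unadjusted p under 0.05, 13 genes were lower, 12 mitotic and 1 S-phase, where 12.3% of all genes were, and 1, Wdr62, was higher. In either direction there were 14, where 20.5% of all genes had one, and their number went to 35 (19.4%) without Cux1 KO P4 male replicate 1, 8 (16.4%) without WT P4 male replicate 1, 7 (16.5%) without WT P4 male replicate 2 and 9 (21.8%) without WT P4 male replicate 3. The medians rested on single libraries. Without Cux1 KO P4 male replicate 1 they were -1.75 for the mitotic and -1.24 for the S-phase genes, against -0.36 for all genes. Without Cux1 KO P4 male replicate 2 they were -0.51 and 0.01, against -0.58 for all genes. In that last fit neither list lay below the genes at large.

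Kif23, the kinesin of cytokinesis, was named after its values were seen. It stood at 1.41 and 0.579 CPM in Cux1 KO males and 42.5, 61.4 and 51.9 CPM in WT males. Both KO libraries lay far below the 3 WT libraries, and below every other library of the study, at -5.75 (SE 0.584, unadjusted p of 0.000186, adjusted p = 0.0764). Without Cux1 KO P4 male replicate 2 it was called at -5.22 (adjusted p = 0.0434), where 639 of 22423 genes tested were called, and over the other fits the adjusted p ran over 1.82e-27 to 0.448. Mki67 stood at 63.0 and 1.78 CPM in KO males and 159, 157 and 111 CPM in WT males. Replicate 2 held almost none, and the log2 fold change was -2.16 (SE 1.36, unadjusted p of 0.173, adjusted p = 0.424). Top2a was at 285 and 74.3 CPM, Cdk1 at 169 and 68.9 CPM and Pcna at 167 and 97.3 CPM in the KO libraries, against 299.8, 447 and 411, 159.6, 196 and 202 and 132, 188 and 163 CPM in WT males. Their unadjusted p was 0.121, 0.168 and 0.356.

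Mcm2 was at 80.9 and 39.7 CPM in the KO males, with replicate 1 inside the WT range, at -0.39 (SE 0.343, unadjusted p of 0.305, adjusted p = 0.588). Pttg1 was at 53.1 and 61.1 CPM in KO males, overlapping with WT, at -0.24 (SE 0.198, unadjusted p of 0.283, adjusted p = 0.565). Its fall in the germline Cux1 KO males at E19 was thus not seen as a call with the other allele at P4, and the difference between the 2 was not tested. Wdr62 was at 21.0 and 5.77 CPM in KO males and 2.19, 1.49 and 0.292 CPM in WT males. Both KO libraries lay above all 3 WT libraries, against the direction of the other genes, at 3.31 (SE 1.098, unadjusted p of 0.0296, adjusted p = 0.188), with adjusted p over 0.0166 to 0.448 in the other fits. The WT males are the same libraries as in the comparisons of sex and of Cux2 KO males at P4, where Wdr62 was also low in them.

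The 2 Cux1 KO libraries at P4 stood apart in other ways. They had 17049 and 19115 genes detected, against 20844 to 22546 in the WT males, at totals of 19499125 and 40421655 counts. The ratio of the S-phase to the mitotic sum was 0.878 and 0.946, against 0.602, 0.628 and 0.671 in WT males. Intermediate progenitor markers summed to 77.2 and 134 CPM, against 451, 409 and 289.8 CPM in WT males, with Btg2 the most abundant and Eomes, Neurog2 and Neurog1 at 0 in both. Endothelial markers summed to 0 and 44.6 CPM against 178, 128 and 242 CPM, and mural markers to 47.3 and 107.9 CPM against 464, 303 and 336 CPM. Both libraries lay below every WT male for these lists. Ependymal markers summed to 0.151 and 0.139 CPM against 44.0, 116 and 110.4 CPM, with Foxj1 and Pifo at 0 in both, and microglia markers to 22.5 and 22.3 CPM against 68.0, 68.2 and 109.9 CPM, with Trem2 at 0 in both. Upper-layer neuron markers were higher, at 2180.2 and 2456 CPM against 1033, 1127 and 1468 CPM.

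Of the remaining lists, the oligodendrocyte, interneuron, other mitotic, other replication and centrosome lists were below WT in both libraries. Radial glia markers summed to 6667 and 4588 CPM against 4964, 5792 and 3954 CPM in WT males, led by Slc1a3, and astrocyte markers to 4715 and 3251 CPM against 3629, 3548 and 3242 CPM, led by Id3. Oligodendrocyte lineage markers were lower, at 1279.9 and 1149 CPM against 3096, 2218 and 2379 CPM, led by Olig1, and so were interneuron markers, at 178 and 323 CPM against 476, 799 and 634 CPM, with Slc32a1 at 0 in both. Erythroid markers were at 0.553 and 413 CPM against 272, 206 and 489.9 CPM. The other mitotic genes summed to 2531 and 1220.3 CPM against 3389, 3576 and 3099 CPM, with Espl1 at 0 in both, the other replication genes to 1473 and 969 CPM against 1609, 1939 and 1655 CPM, the G1 regulators to 3503 and 2754 CPM against 2986, 3545 and 2936 CPM and the centrosome genes to 491 and 498 CPM against 811, 913 and 904 CPM. Of the genes on these lists 0 were called. What part these markers, the number of genes detected or replicate 2 have in the low values was not tested.

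**Figure D4:**
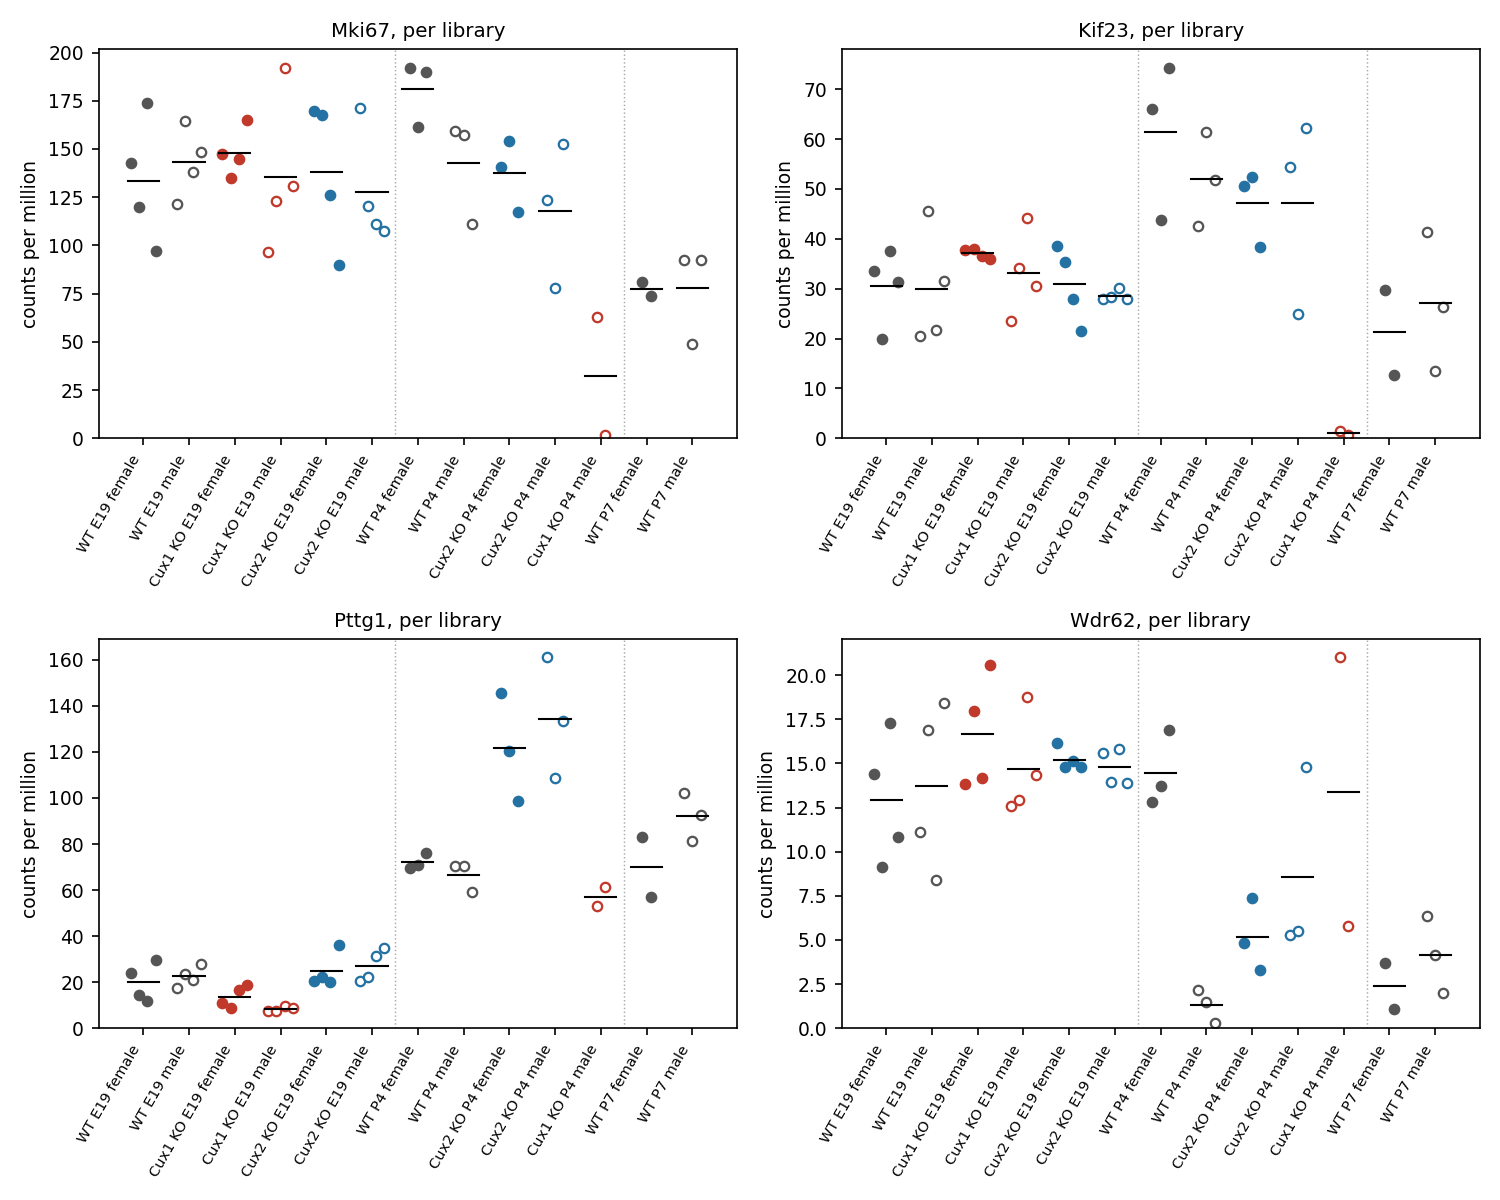
Level in CPM of Mki67, Kif23, Pttg1 and Wdr62, each point a library (filled, female, open, male) and each bar a group mean, with WT in grey, Cux1 KO in red and Cux2 KO in blue. Kif23 stood at 1.41 and 0.579 CPM in the Cux1 KO males at P4, and Wdr62 at 2.19, 1.49 and 0.292 CPM in the WT males at P4.

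In some groups 1 library was highest or lowest for most of the genes. Among Cux1 KO males at E19, replicate 3 was the highest of the 4 libraries for 26 of 26 mitotic genes and replicate 1 the lowest for 25, and in S phase they were so for 14 and 14 of 16 genes. WT E19 female replicate 3 was highest for 24 of 26 mitotic and 14 of 16 S-phase genes, and WT E19 male replicate 1 lowest for 23 and 12. At P4 Cux2 KO male replicate 2 was lowest of 3 for 24 of 26 and 15 of 16 genes, and at P7 WT male replicate 2 for 25 of 26 and 16 of 16. Some other groups did not show this for the mitotic genes. Among Cux1 KO females at E19 replicates 1 to 4 were highest for 7, 7, 1 and 11 of 26 mitotic genes. Among WT P4 males replicates 1 to 3 were so for 6, 10 and 10. In S phase replicate 1 was lowest for 10 of 16 genes in those Cux1 KO females and for 11 in those WT males. Genes of a library are not independent of each other, and the counts describe these libraries alone.

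The promoters of the genes were read for motifs known from cell cycle genes. RefSeq promoter windows of 300 bases, 250 before and 50 after the start, were at hand for 35 of the 42 genes, from a table of build GRCm38.p6, and each of the 38 windows was placed on GRCm39 by an exact and single match. Ccna2, Aurkb, Kif20a, Tpx2, Mcm4, Gins2 and Ccne2 had none. Some windows rest on a start far from the annotated start of the gene. The distance was 47853 bases for Cdk1, 4192 for Pttg1, 1349 for Ccne1 and 1156 for 1 window of Mcm7. In the other windows it was at most 539 bases. Motifs were searched on both strands as letters, the CHR element TTTGAA or TTCGAA, the CCAAT box CCAAT and the E2F site TTTGGCGC, TTTCCCGC or TTTCGCGC. Of the mitotic genes with a window, 16 of 22 (72.7%) held CHR letters and 19 of 22 (86.4%) CCAAT letters, against 21.7% and 41.1% of all 27025 genes in the table. Both in the same window were held by 16 of 22 (72.7%), against 8.61%. E2F letters were in 2 of 22 (9.09%) of the mitotic and 5 of 13 (38.5%) of the S-phase genes, against 2.12% of all genes. Of the S-phase genes 2 of 13 (15.4%) held CHR and 8 of 13 (61.5%) CCAAT letters. A match of letters is a description and shows no binding.

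The windows of 3 mitotic and 2 S-phase genes are printed 5′ to 3′ on the strand of the gene, with motif letters of either strand in capitals, for genes with a strong change between stages and for Mcm6, whose window holds E2F letters. They are Ccnb1 at chr13:100922945-100923244, Ccnb2 at chr9:70328787-70329086 and Mcm6 at chr1:128287393-128287692 on the minus strand, and Aspm at chr1:139382261-139382560 and Rrm2 at chr12:24758003-24758302 on the plus strand, all in GRCm39. CCAAT letters on the minus strand read as ATTGG, CHR letters as TTCAAA or TTCGAA and E2F letters as GCGCCAAA, GCGGGAAA or GCGCGAAA.
Ccnb1: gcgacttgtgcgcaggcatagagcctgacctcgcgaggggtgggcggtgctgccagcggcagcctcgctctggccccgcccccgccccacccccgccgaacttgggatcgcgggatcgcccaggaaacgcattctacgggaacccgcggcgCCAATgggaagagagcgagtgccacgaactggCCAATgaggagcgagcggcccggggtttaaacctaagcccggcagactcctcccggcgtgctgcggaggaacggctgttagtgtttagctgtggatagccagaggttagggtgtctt
Ccnb2: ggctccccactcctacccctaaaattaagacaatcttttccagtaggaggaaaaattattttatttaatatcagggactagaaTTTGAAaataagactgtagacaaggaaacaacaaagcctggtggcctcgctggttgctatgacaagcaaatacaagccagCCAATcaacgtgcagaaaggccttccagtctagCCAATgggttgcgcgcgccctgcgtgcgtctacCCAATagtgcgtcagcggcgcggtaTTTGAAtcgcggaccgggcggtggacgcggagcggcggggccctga
Aspm: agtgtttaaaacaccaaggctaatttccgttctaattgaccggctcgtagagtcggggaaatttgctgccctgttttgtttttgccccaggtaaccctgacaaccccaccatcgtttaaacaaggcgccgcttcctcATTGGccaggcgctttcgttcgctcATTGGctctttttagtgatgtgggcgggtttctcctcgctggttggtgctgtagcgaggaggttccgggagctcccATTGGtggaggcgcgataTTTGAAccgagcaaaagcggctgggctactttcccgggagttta
Rrm2: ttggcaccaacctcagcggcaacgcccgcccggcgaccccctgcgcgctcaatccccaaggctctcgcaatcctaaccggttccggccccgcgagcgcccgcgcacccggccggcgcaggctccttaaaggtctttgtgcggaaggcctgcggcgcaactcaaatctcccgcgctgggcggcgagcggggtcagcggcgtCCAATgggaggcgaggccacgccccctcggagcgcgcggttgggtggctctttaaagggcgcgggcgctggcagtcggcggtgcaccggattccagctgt
Mcm6: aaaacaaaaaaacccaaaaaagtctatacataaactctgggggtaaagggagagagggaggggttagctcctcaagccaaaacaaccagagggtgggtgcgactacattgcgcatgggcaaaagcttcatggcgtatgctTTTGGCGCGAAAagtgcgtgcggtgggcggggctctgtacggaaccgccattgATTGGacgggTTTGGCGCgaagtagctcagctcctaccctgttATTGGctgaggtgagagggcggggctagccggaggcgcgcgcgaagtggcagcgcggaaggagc
Ccnb2 and Aspm hold both CHR and CCAAT letters, while Ccnb1 and Rrm2 hold CCAAT letters alone and Mcm6 holds CCAAT and E2F letters.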

How the data were processed

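RNA of GFP-labelled, FACS-sorted cortical cells was sequenced in 43 libraries. Reads had been mapped on GRCm39 (hisat2), with the Y chromosome masked for females and its pseudoautosomal region masked for males. The authors removed duplicated reads with a set threshold, so duplicates below it may remain. Reads were assigned to genes (featureCounts, Ensembl), and the deposited values are raw counts per gene and library, without normalization. The members and lists were chosen with earlier results of these data known.

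Each pair of groups was fitted with edgeR 4.0.16 (R 4.3.3, TMM, filterByExpr, two-sided quasi-likelihood F test) on all genes of its own libraries, WT stages with sex as a covariate, and differences between effects as interactions without a fold threshold. P-values were adjusted by Benjamini-Hochberg over all genes tested, and standard errors are those the F value implies. Groups were taken from the labels and no library was left out. Values in each library are given for Mki67, Top2a, Cdk1, Mcm2, Pcna, Wdr62 and Pttg1 and for genes called, at most 3 in each direction and list where over 6 were, and from other cycle lists at most 3 in each direction. Positions and transcript lengths come from GENCODE M39. The other lists were 4 of the cell cycle (other mitotic, other replication, G1 regulators, centrosome microcephaly genes) and 11 of cell types (radial glia, intermediate progenitors, astrocytes, oligodendrocyte lineage, microglia, endothelial, mural, interneurons, ependymal, erythroid, upper-layer neurons).

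Alternatives were DESeq2 1.42.0 with and without its prior, its size factors in edgeR, no low-count filter, no fold threshold, all groups of a stage in 1 fit, both sexes in 1 fit, a replicate block, and leaving out each library. Single sexes, and Cux2 KO in place of WT, were chosen after seeing the data. Fits were tested on simulated data. The libraries held 13321095 to 60559585 counts. Over 53 pairs of replicates the chi-square per degree of freedom ran from 7.79 to 213, where 1 would be sampling noise. The spread between libraries, beyond depth, thus limits the precision, and PCR copies are not independent molecules.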

Additional observations from a re-analysis of the deposited data

Results flagged for a closer look

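In groups of 4 libraries the library farthest from the others was compared with the range of its group by Dixon's test, for 18 measures in each of 6 groups, and 4 stood out. Chance flags about 1 in 20 groups. The 4 are no more than chance gives for so many, and 2 of them come from the same library. The mitotic sum of Cux1 KO E19 female replicate 4 was 1701.6 CPM, against 1549 to 1571 CPM in the other 3 libraries. The mitotic sum of Cux2 KO E19 male replicate 1 was 1676 CPM, against 1262 to 1311 CPM. In that library Top2a was at 279 CPM, against 207 to 211 CPM. Pttg1 in Cux2 KO E19 female replicate 4 was at 36.3 CPM, against 19.9 to 22.1 CPM in the others.

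For 3 of the 42 genes the libraries of a contrast lay apart in opposite directions in a pair of groups. How many of all genes did so was not counted, so the 3 cannot be set against a background. Wdr62 in Cux2 KO against WT at P4 had a log2 fold change of -1.49 in females and 2.67 in males, and the interaction of KO and sex was -4.17 (SE 0.939, adjusted p = 0.629). Mcm2 in the same contrasts had -0.68 in females and 0.59 in males, with an interaction of -1.28 (SE 0.243, adjusted p = 0.482). For Wdr62 and Mcm2 at P4 the WT sexes lay apart, while the Cux2 KO sexes overlapped. Ccne2 in WT females against males had 0.51 at P4 and -0.78 at P7, and this difference was not tested.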

How the results depend on the processing

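Over the alternatives, 220 counts of genes called stayed within 1.5 times the reported count and 26 moved, 340 list medians stayed within 1 SD between libraries of the reported value and 4 moved farther, and of the single genes 564 kept their direction and side of the threshold, 22 passed it newly, 50 no longer passed and 12 turned their sign. Many of the counts that stayed were 0 in both fits. Medians near 0 also turned their sign over the alternatives other than leaving out a library. Among them were the mitotic ones in Cux1 KO males at E19 (-0.12 to 0.05), Cux2 KO females at E19 (-0.05 to 0.10) and WT sexes at P7 (-0.07 to 0.06). Leaving out 1 library gave -0.30 to 0.01, -0.01 to 0.23 and -0.32 to 0.08 in the same order. With the replicate block (libraries paired by number) the count was the same in 10 of 10 comparisons, 1 gene in Cux1 KO males at E19 and 0 in each of the others. A count that is 0 with and without the block says little about the pairing. DESeq2 called 1 gene with and 2 without its prior between WT sexes at P4, 9 and 10 in Cux1 KO males at P4, 1 without the prior in Cux2 KO females at P4, and without the prior 2 each for Cux2 KO by sex at P4 and WT sex by stage. All groups in 1 fit gave 10 in Cux1 KO males at P4, and both sexes in 1 fit gave 1 in Cux1 KO females at E19 and turned Wdr62 in Cux2 KO females at P4 to 0.58. From E19 to P4 the S-phase median was 1.11 in females only, Wdr62 had 0.19 in females only, Mcm2 -0.33 in males only and Mki67 -0.0503 with Cux2 KO libraries in place of WT, all chosen after seeing the data. From P4 to P7, 24 genes passed without the fold threshold, 4 with DESeq2 and its prior, and 0 in females only and 0 in males only, where the S-phase median was -0.52, Wdr62 had -0.48 with DESeq2 and its prior and -2.63 in females only, and Pttg1 -0.0611 in females only, the single sexes chosen after seeing the data. Leaving out 1 library gave 0 to 1 genes in Cux1 KO males at E19, 0 to 1 in Cux1 KO males at P4, with medians of -1.75 to -0.51 for mitotic and -1.24 to 0.0146 for S-phase genes, 2 to 18 from P4 to P7, with -0.71 to 0.82 for Wdr62, and 0 to 1 for WT sex by stage. The cause was not tested. For Cux1 KO males at P4 the median of all genes was -0.36 without Cux1 KO P4 male replicate 1. It was -0.58 without Cux1 KO P4 male replicate 2, the fit with the list medians nearest 0. Where an arm is left with 1 library, its spread is assumed to be that of the other group. With 2 to 4 libraries per group, small differences in genes with few counts may have gone undetected.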
